A study of Mus musculus with 10 samples.

Results

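Keratins are the proteins of the intermediate filaments of epithelial cells. The family described here comprised 48 genes, namely every gene whose probe sets carried a single symbol beginning with Krt and a digit in the array's annotation. They were covered by 61 probe sets of 34958 with 1 gene symbol, and 18194 genes had such a probe set. Where a gene had several, the probe set with the highest mean signal over all arrays stood for it. Of the 48 genes, 45 passed a filter on low signal and entered the fit over 14087 genes, while Krt26, Krt28 and Krt82 did not, with signals of 8.65 to 13.2, 15.3 to 25.1 and 15.7 to 33.3 over all arrays.

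A keratin filament is built from pairs of 1 acidic (type I) and 1 basic (type II) chain, so that the genes are usually read as partners. Simple epithelia make mainly Krt8 with Krt18 or Krt19, basal cells of stratified epithelia make Krt5 with Krt14, and cells leaving the basal layer of the epidermis replace these by Krt1 with Krt10. Other pairs belong to mucosa, to activated epidermis and to hair. In the thymus, keratins serve to tell the epithelium of the cortex from that of the medulla, and medullary cells also express keratins typical of skin and other organs.

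The arrays held total RNA of medullary thymic epithelial cells (mTECs) from the thymus of mice aged 3 weeks, with a C57BL/6 strain background in both groups. The cells were sorted as CD45-, EpCAM+ and CD80hi, that is, without the common leukocyte antigen, with an epithelial adhesion molecule and with much of a costimulatory protein of mature mTECs. There were 5 arrays of wild type cells (WT 1 to WT 5) and 5 arrays of Fezf2 KO cells (KO 6 to KO 10), numbered as in their titles, where KO stands for the loss of the transcription factor Fezf2. How the gene was removed, and whether each array is a separate mouse, is not given in the sources used here. The p-values therefore speak only of the variation among these arrays, which may be technical in part.

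The targeted gene followed the labels, with a Fezf2 signal of 5475 ± 350.0 (SD, n = 5) in WT and 15.04 ± 2.77 (SD, n = 5) in KO cells. Epcam had a log2 change of 0.07 (95% interval -0.02 to 0.16) and H2-Aa, a class II antigen presentation gene, one of 0.06 (-0.004 to 0.13). Probes for 18S rRNA read 3445 on WT 1 and 3762 on KO 6, while the remaining arrays read 765 to 1774. Xist, an RNA of female cells, was 21.1 to 30.0 on WT 2, KO 6 and KO 8 and 5304 to 6100 on the others, that is, 1 WT and 2 KO arrays lacked it. Neither group was therefore 1 RNA sample measured on all its arrays. With the Xist level as a block, 25 of the 29 keratin calls described next stood, the exceptions being Krt14, Krt34, Krt6b and Krt77. Marker lists of other cells were read by their summed signals. Counts of markers called, here and below, stand beside 16.2% lower and 13.0% higher over all genes tested. Thymocyte markers summed to 684 to 895 in WT and 400.4 to 970.4 in KO (0 of 7 past the threshold by limma, 0 at an unadjusted p under 0.05). Fibroblast markers summed to 2139 to 2481 and 2268 to 2886 (2 of 6 higher). Endothelial markers summed to 98.9 to 235 and 221 to 305 (4 of 4 higher). Of these 4, Emcn and Pecam1 were weak, above the 40th percentile of the array on 6 arrays only. They passed the low-signal filter mainly through KO arrays, with WT means of 17.3 and 23.0, and Tie1 failed it. Myeloid markers summed to 5024 to 5514 and 3271 to 4228 (3 of 5 lower, 1 higher), and tuft cell markers to 1108 to 2404 and 1103 to 1807 (3 of 8 lower). Most of the myeloid sum came from Lyz2, with means of 4291 in WT and 3187 in KO, and the higher myeloid marker was Itgam. Cortical epithelium markers summed to 11175 to 14921 in WT and 19798 to 23757 in KO (4 of 7 higher, 1 lower). The higher ones were Ctsl, Ccl25, Enpep and Cd83, and the lower one was Ly75. Most of the sum came from Ctsl, with means of 5458 in WT and 9991 in KO, and Ccl25, with 4946 and 7687. Prss16 and Psmb11 did not pass (limma, adjusted p = 0.18 and 0.58). The markers of mTECs themselves summed to 57207 to 65533 and 61685 to 66699 (3 of 10 higher and 1 lower, Aire). The part of any of these in the keratin results was not tested.

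Keratins of stratified epithelia were lower or higher in KO cells depending on the gene. Among those past the threshold, every keratin classed under hair and nail, the inner root sheath or the suprabasal epidermis was lower. These were 8 of 11, 2 of 5 and 3 of 4 tested. Of the 45 keratins tested, 22 were lower in KO cells, 7 were higher and 16 did not pass the threshold (limma, Benjamini-Hochberg adjusted p under 0.05 over all genes). That is 64.4% of the keratins tested, against 29.2% of all genes tested. The lower calls made up 48.9% of the keratins against 16.2% of all genes, and the higher calls 15.6% against 13.0%. The median log2 change was -0.27 for the keratins and -0.03 for all genes. Changes are KO minus WT on the scale log2(signal + 16), on which the change of weak genes is understated. Since a low-signal filter can favour genes high in 1 group, the fit was also run on all 48 without it, where 21 were lower and 7 higher, together 58.3% against 22.9% of all genes. At least 2-fold changes were found for 5 keratins, Krt10 and Krt1 lower and Krt6a, Krt23 and Krt80 higher, where 2.19% of all genes tested changed that much. With an offset of 1 in place of 16, Krt84 (-1.09) and Krt33a (-1.13) joined them, making 4 lower and 3 higher, against 3.07% of all genes. The KO and WT signals did not overlap in 21 of the 45 keratins tested (46.7%), 15 of them below and 6 above WT, a separation that 22.1% of all genes tested showed in either direction, 12.0% below and 10.1% above.

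By chain type, 12 of the 23 type I keratins tested were lower and 1, Krt23, was higher. Of the 21 type II keratins tested, 10 were lower and 6 higher. The medians were -0.34 and -0.22. Krt88 was in neither list. Counts of keratins by chain type and by class, here and below, stand beside 16.2% lower and 13.0% higher over all genes tested.

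**Figure D1:**
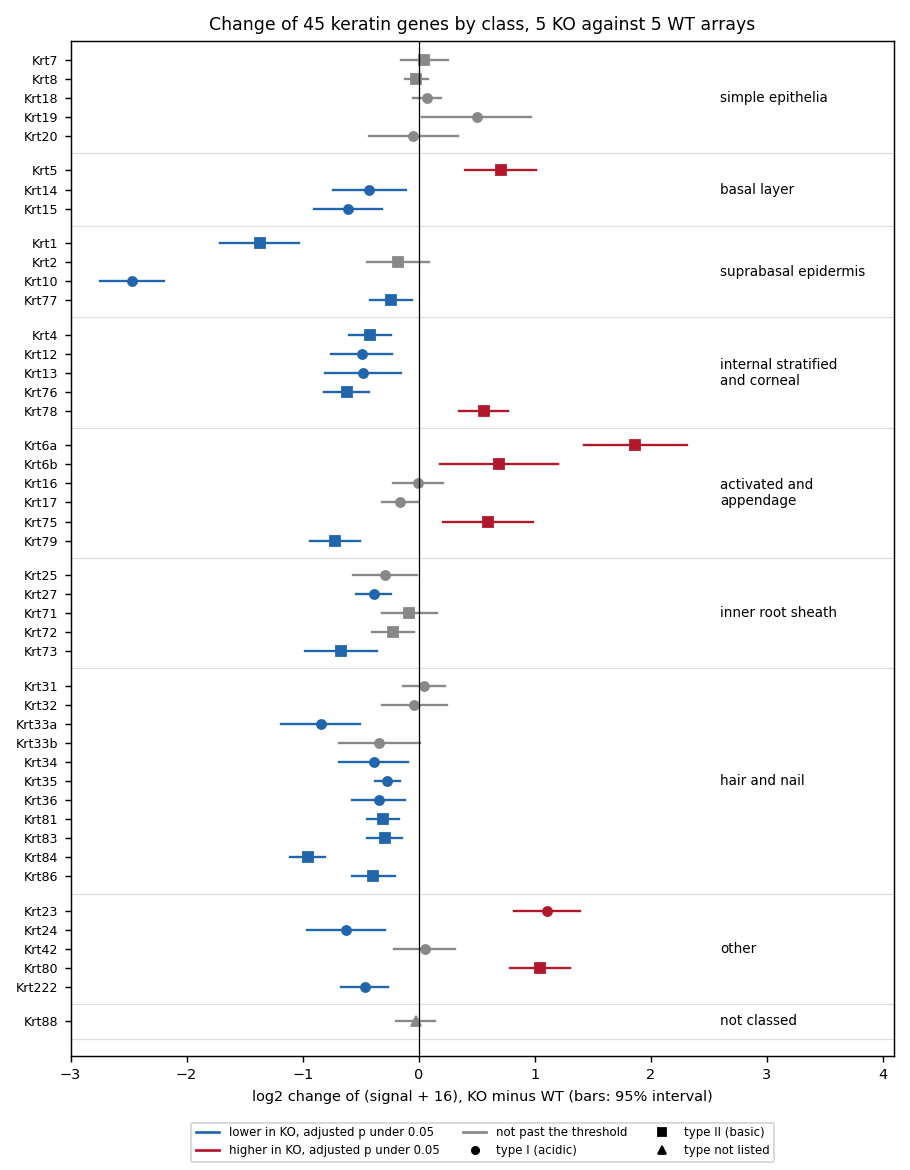
Log2 change of the signal (KO minus WT, horizontal axis) of the 45 keratins tested, grouped by class, with 95% intervals from the limma fit. Circles are type I and squares type II chains, blue marks lower and red higher genes past an adjusted p of 0.05. The 5 keratins of simple epithelia are grey, and the points range from -2.47 for Krt10 to 1.87 for Krt6a.

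The keratins of the suprabasal epidermis held the strongest falls. Krt10, the type I chain of that layer, gave signals of 3696, 2296, 2419, 2211 and 2552 on WT 1 to WT 5, and of 445, 464, 527, 397 and 443 on KO 6 to KO 10. Every KO array lay far below every WT array, and WT 1 stood above the other WT arrays. The log2 change was -2.47 (SE 0.13, adjusted p = 1.7e-07), a 5.55-fold difference. In bulk RNA such a fall cannot be divided between fewer cells expressing the gene and less RNA in each.

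Krt1, the type II partner of Krt10, gave 478, 320, 262, 268 and 288 in WT and 116, 111, 129, 129 and 82.0 in KO cells. The groups were again apart, and WT 1 was again the highest WT array. The change was -1.37 (SE 0.16, adjusted p = 5.2e-05). Without WT 1 and KO 6 the changes were -2.34 for Krt10 and -1.24 for Krt1. The log2 difference between Krt10 and Krt1 within an array was 2.78 to 3.13 on the WT arrays and 1.51 to 2.23 on the KO arrays.

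Krt77 and Krt2 are type II chains. Krt77, a keratin of sweat ducts, was 1063 ± 87.7 in WT and 899 ± 95.6 (SD, n = 5) in KO, with overlapping groups and a log2 change of -0.24 (adjusted p = 0.0468). Leaving out single arrays ended that call in 7 of 10 cases. Krt2, of the upper spinous and granular layers, had a change of -0.18 (95% interval -0.45 to 0.09). Krt9 of palms and soles was not analysed here.

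Markers of cornified cells went the other way beside these falls. Of the 15 genes listed, 9 were higher in KO cells and 1, Klk7, was lower, with summed signals of 11544 to 18569 in WT and 21711 to 28350 in KO. Tgm1, the transglutaminase that crosslinks the cornified envelope, was 104 ± 10.6 in WT and 232 ± 39.5 (SD, n = 5) in KO. Lor, the envelope protein loricrin, was 681 ± 141 and 1047 ± 147. Ivl, involucrin, had a change of 0.31 (95% interval -0.06 to 0.67). The part of these cells in the keratin results was not tested.

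The promoter of Krt10 is shown because that gene had the largest change of the family. The 250 bases before the transcript start of its entry are from RefSeq, build GRCm38.p6, chr11:99389365-99389614 on the minus strand, 5′ to 3′. The start of this entry differs from the start of the Krt10 gene in RefSeq. Capitals mark the TATA box motif TATAAA, whose first base lies 26 bases before the start, and the letters CCAAT read on the other strand.

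Krt10: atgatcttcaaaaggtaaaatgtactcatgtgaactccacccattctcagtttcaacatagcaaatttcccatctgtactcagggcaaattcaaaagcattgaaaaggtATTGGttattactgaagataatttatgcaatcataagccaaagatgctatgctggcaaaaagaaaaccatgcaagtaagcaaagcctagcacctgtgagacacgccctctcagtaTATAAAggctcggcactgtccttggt

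The basal keratins, which mark the dividing layer of stratified epithelia and are made by part of the mTECs, changed in opposite directions. Krt5 gave 1320, 1392, 2147, 2203 and 1895 in WT and 3326, 2833, 2699, 2569 and 2967 in KO cells. All KO arrays lay above all WT arrays, and WT 1 and WT 2 were the lowest. The change was 0.71 (SE 0.14, adjusted p = 0.0026).

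Krt14, the type I partner of Krt5, gave 1346, 1715, 2416, 2385 and 2036 in WT and 1471, 1315, 1365, 1372 and 1696 in KO cells. The groups overlapped, since WT 1 lay below KO 6, KO 8, KO 9 and KO 10, and the change was -0.42 (SE 0.14, adjusted p = 0.0436). It no longer passed in 7 of 10 fits with a single array omitted, while without WT 1 and KO 6 together the change was -0.56 (adjusted p = 0.0034). A second strong probe set of Krt14, without the mark of shared probes, gave -0.39 and did not pass (adjusted p = 0.081 over probe sets), and a weak one gave -0.17. These probe sets can share sequence with close relatives, since the suffix of the first marks partly shared probes.

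Signals of different probe sets are no measure of relative abundance, so that only the shift of their difference between genotypes can be read. The log2 signal of Krt14 minus that of Krt5 was 0.03 to 0.30 on the WT arrays and -1.17 to -0.80 on the KO arrays, so that no array of one genotype reached the range of the other. Krt15, a type I chain of basal and bulge cells, was 361 ± 54.6 in WT and 233 ± 50.1 in KO (SD, 5 arrays each, log2 change -0.61, adjusted p = 0.0047). Only KO 6, at 314, reached into the WT range of 297 to 432. Among markers of immature mTECs, Col17a1, a hemidesmosomal collagen, was 421 ± 50.3 in WT and 148 ± 22.1 in KO, and Pdpn, podoplanin, was 679 ± 319 and 1098 ± 80.8. Of the 5 such markers tested 2 were higher and 1 lower, and their summed signals overlapped, 3491 to 5219 in WT and 4067 to 4920 in KO.

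**Figure D2:**
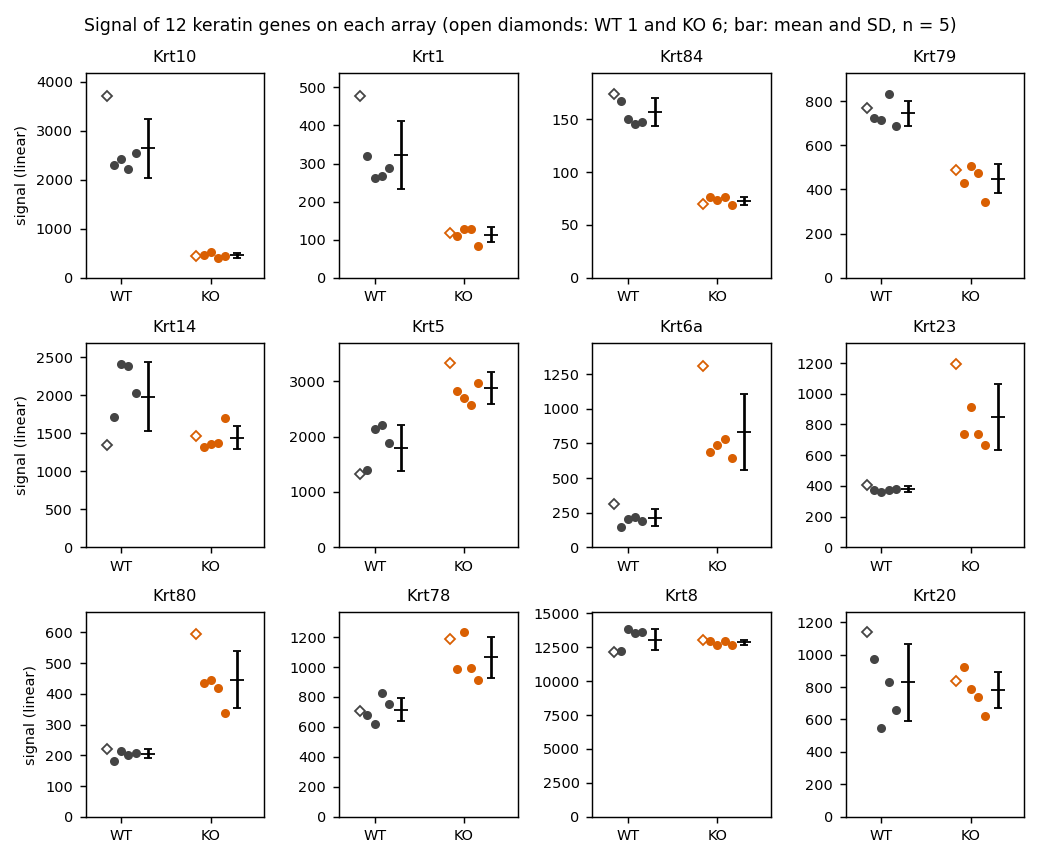
Linear signal (vertical axis, from 0) of 12 keratins on each of the 5 WT and 5 KO arrays, with mean and SD at the right of each group and open diamonds for WT 1 and KO 6. Krt10, Krt1, Krt84 and Krt79 lie lower in KO, Krt5, Krt6a, Krt23, Krt80 and Krt78 higher, while Krt14, Krt8 and Krt20 overlap between the groups.

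Keratins of activated epidermis and skin appendages were divided. Krt6a, a type II chain induced in wounded and hyperproliferative epidermis, gave 311, 145, 205, 220 and 192 in WT and 1310, 686, 735, 784 and 644 in KO cells. KO 6 stood above the other KO arrays, and the lowest KO signal still exceeded the highest WT signal. The change was 1.87 (SE 0.20, adjusted p = 3.6e-05), a 3.65-fold difference, and its other probe sets gave 1.65 and 1.36. Without WT 1 and KO 6 it was 1.83.

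Krt6b, a near copy of Krt6a, gave 525, 318, 263, 327 and 162 in WT and 655, 494, 436, 487 and 417 in KO cells. The groups overlapped through WT 1, and the change was 0.69 (SE 0.23, adjusted p = 0.0423). With a single array omitted it failed to pass in 8 of 10 fits, but it stood without WT 1 and KO 6 together (0.78, adjusted p = 0.0081). The sequences of Krt6a and Krt6b are so alike that their signals may not be fully separate. Krt75, of the companion layer of the hair follicle, was 90.9 ± 27.2 in WT and 142 ± 22.9 in KO (SD, 5 arrays each, log2 change 0.60, adjusted p = 0.0235), with the call lost without KO 9.

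The type I chains that pair with Krt6a and Krt6b did not pass. Krt16 was 961 ± 138 in WT and 952 ± 76.0 in KO cells (log2 change -0.01, 95% interval -0.22 to 0.21). Krt17 was 4308 ± 433 and 3841 ± 202 (-0.16, 95% interval -0.31 to -0.01, adjusted p = 0.11). Within single arrays the log2 signal of Krt16 minus that of Krt6a was 1.78 to 2.65 in WT and -0.49 to 0.50 in KO. Krt79, a keratin of the ducts of sebaceous glands, was lower, from 745 ± 57.0 to 449 ± 65.3 (log2 change -0.72, adjusted p = 2.1e-04).

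Among keratins of internal stratified and corneal epithelia, 4 of 5 were lower and 1 was higher. Krt4 and Krt13 form the mucosal pair of the esophagus and tongue. Krt4 was 399 ± 30.2 in WT and 295 ± 32.6 in KO cells (log2 change -0.42, adjusted p = 0.0028), and Krt13 was 124 ± 30.8 and 83.0 ± 14.6 (-0.48, adjusted p = 0.0312), the latter call ending in 7 of 10 single-array omissions. A second probe set of Krt4, without shared probes, gave -0.31 (adjusted p = 0.076 over probe sets).

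Krt76, of the hard palate, gave 248, 356, 269, 303 and 318 in WT and 183, 196, 190, 195 and 172 in KO cells. The groups were apart, with a change of -0.62 (SE 0.09, adjusted p = 2.9e-04), though its only probe set is marked as sharing probes with other genes. Krt12, the corneal type I chain, had a change of -0.49 (adjusted p = 0.0082), and -0.52 by its other probe set. Krt78 rose, from 715 ± 77.6 to 1064 ± 139 (log2 change 0.56, adjusted p = 0.0011), and each KO array exceeded each WT array.

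Keratins of simple epithelia, the chains most typical of one-layered linings and made throughout thymic epithelium, did not pass in any of 5 cases (limma, with 1 at an unadjusted p under 0.05, Krt19). Krt8 was 13068 ± 805 in WT and 12854 ± 171 in KO (SD, 5 arrays each, log2 change -0.02, 95% interval -0.12 to 0.08), and its other probe sets gave -0.05 and -0.03. Krt18, its type I partner, was 9152 ± 329 and 9636 ± 812 (0.07, 95% interval -0.05 to 0.19). Krt7, of ducts and glands, had a change of 0.05 (95% interval -0.15 to 0.25). The intervals of Krt7, Krt8 and Krt18 together span -0.15 to 0.25.

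Krt19 was less certain. It gave 995, 773, 605, 894 and 786 in WT and 2151, 953, 962, 1069 and 900 in KO cells. KO 6 was far above all other arrays, and KO 7, KO 8 and KO 10 lay below WT 1. The change was 0.50 (SE 0.21, adjusted p = 0.10), and 0.27 without KO 6 alone (adjusted p = 0.11). It passed without WT 1 and KO 6 together, at 0.35 (adjusted p = 0.0259). Krt20, the keratin of intestinal epithelium, gave 1138, 975, 545, 829 and 656 in WT and 839, 922, 790, 741 and 619 in KO cells. The KO values lay within the range of the WT values, with a change of -0.05 (95% interval -0.43 to 0.34). In the same arrays 7 of 8 enterocyte markers were lower in KO cells, with summed signals of 3645 to 5659 in WT and 1792 to 2272 in KO. Krt23 and Krt80, outside the main classes, rose. Krt23, a type I chain, gave 407, 370.0, 360, 372 and 380 in WT and 1192, 735, 914, 740.0 and 663 in KO cells. The WT arrays were tightly grouped and all KO arrays lay above them, with a change of 1.10 (SE 0.13, adjusted p = 6.5e-05). Krt80, a type II chain found in many epithelia, gave 220, 180, 213, 202 and 208 in WT and 595, 434, 447, 418 and 338 in KO cells. It too was apart in the groups (log2 change 1.05, SE 0.12, adjusted p = 4.9e-05). KO 6 was the highest KO array for both.

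Krt24 and Krt222 fell, with changes of -0.63 (adjusted p = 0.0087) and -0.47 (adjusted p = 0.0024). A second probe set of Krt222 gave -0.32 (adjusted p = 0.053 over probe sets). Krt42 had probe sets of opposite sign, 0.05 and -0.17, neither past the threshold.

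Keratins classed under hair and nail, the hard keratins, were lower in 8 of the 11 tested and higher in none (limma, 8 at an unadjusted p under 0.05). Krt84 gave 174, 168, 150, 146 and 147 in WT and 69.5, 76.1, 73.4, 76.7 and 68.5 in KO cells. The spread within each group was small beside the gap between them, and the change was -0.96 (SE 0.07, adjusted p = 1.9e-06). Krt33a was 70.2 ± 15.0 in WT and 32.2 ± 10.5 in KO (log2 change -0.85, adjusted p = 0.0015). The 6 others that were lower, Krt34, Krt86, Krt36, Krt81, Krt83 and Krt35, had log2 changes of -0.39, -0.39, -0.35, -0.31, -0.29 and -0.27. Single-array omissions ended the calls of Krt34 and Krt36 in 8 and 6 of 10 cases. Krt31, Krt32 and Krt33b did not pass. Krt35 was weak, 23.1 to 25.5 in WT and 14.95 to 19.6 in KO cells, where the 40th percentile of an array lay between 21.5 and 22.1. It passed the filter through its WT arrays only, and without it 7 of 10 hair and nail keratins and 21 of 44 keratins were lower.

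Of the 5 keratins tested of the inner root sheath, the layer that moulds the growing hair, 2 were lower. That is 40% against 16.2% of all genes tested, a share that rests on few genes. Krt73 was 245 ± 68.0 in WT and 145 ± 16.5 in KO cells (log2 change -0.67, adjusted p = 0.0041) and Krt27 was 50.2 ± 4.26 and 34.6 ± 3.52 (-0.39, adjusted p = 0.0012). Krt25, Krt71 and Krt72 did not pass, at -0.29, -0.08 and -0.22. Of all 22 lower keratins, 10 had a mean WT signal under 200, and 1 of the 7 higher ones, Krt75, did.

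Keratin genes lie in a pair of clusters, type I on chromosome 11 and type II, together with Krt18, on chromosome 15, and their order was taken from RefSeq. On chromosome 15 the 4 neighbouring keratin genes Krt75, Krt6b, Krt6a and Krt5 were all higher in KO cells. On one side of them Krt81, Krt86, Krt83 and Krt84 were lower in an unbroken run, separated from Krt75 by Krt82 and Krt90, which were not tested. On the other side, past Krt71, Krt72, Krt73 and Krt2, of which Krt73 alone was lower, Krt1, Krt77, Krt76, Krt4 and Krt79 were lower in a run, and the next gene, Krt78, was higher. In the type I cluster 12 members were lower and only Krt23 was higher, between Krt20, which did not pass, and Krt33a, the next member with a probe set, which was lower. Krt8 and Krt18 are neighbours and neither passed. Neighbouring members of close sequence may share probes, so runs are given as a description with no test.

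**Figure D3:**
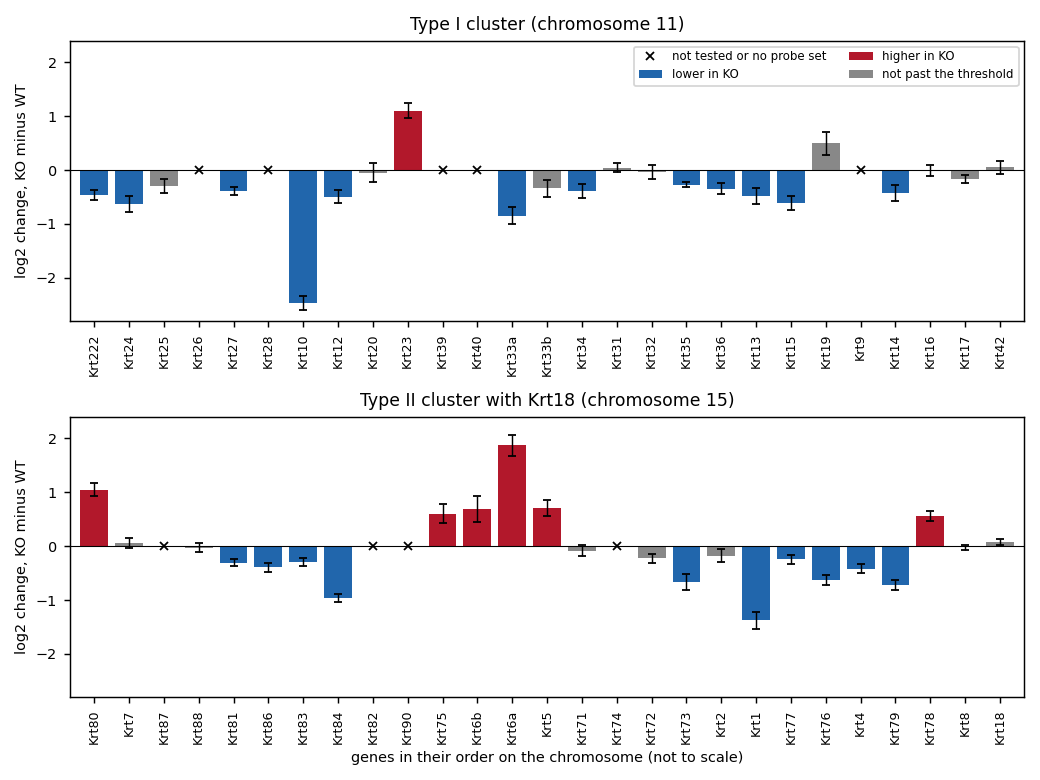
Log2 change (KO minus WT, bars with SE) of keratin genes in their order on chromosome 11 (top) and chromosome 15 (bottom), evenly spaced and not to scale, with crosses for genes not tested or without a probe set. Krt75 to Krt5 stand above 0 on chromosome 15, between runs of lower genes.

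In that run of risers Krt6b and Krt6a had no promoter entry. The promoters at its ends, Krt75 and Krt5, are shown because these neighbours rose together. Both are from RefSeq, build GRCm38.p6, minus strand, 5′ to 3′, and cover the 250 bases before the start, chr15:101573905-101574154 for Krt75 and chr15:101712906-101713155 for Krt5. Capitals mark the run ATAAAA, which begins 32 bases before the start in Krt75 and 29 bases before it in Krt5.

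Krt75: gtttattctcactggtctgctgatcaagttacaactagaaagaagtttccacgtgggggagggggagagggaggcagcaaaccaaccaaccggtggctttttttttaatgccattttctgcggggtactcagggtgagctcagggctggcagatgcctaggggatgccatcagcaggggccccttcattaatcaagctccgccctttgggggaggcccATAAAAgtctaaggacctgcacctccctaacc
Krt5: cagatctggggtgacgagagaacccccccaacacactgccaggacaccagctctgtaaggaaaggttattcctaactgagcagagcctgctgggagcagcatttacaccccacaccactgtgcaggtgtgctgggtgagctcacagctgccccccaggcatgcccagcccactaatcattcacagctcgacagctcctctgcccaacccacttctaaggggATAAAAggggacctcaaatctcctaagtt

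Of the 48 keratins, 32 had a promoter entry. The motif TATAAA, searched on both strands in those 250 bases, was found for 16 of the 32 genes, against 12.4% of the 32851 promoters of the table. The run ATAAAA, which overlaps TATAAA where an A follows, was found for 18 genes against 17.0% of promoters. CCAAT was found for 14 genes against 33.8%, and the AP-1 motif TGANTCA for 1, Krt13, against 6.75%. TATAAA was present for 7 of 13 lower, 0 of 4 higher and 7 of 12 keratins that did not pass, and ATAAAA for 4, 4 and 7 of them. These matches are a description of letters, chosen after the values were known, and no test was made of them.

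Arrays differed within a genotype. KO 6 was the highest KO array for 18 of the 45 keratins tested and KO 10 the lowest for 25. Among WT arrays, WT 1 and WT 5 were each the highest for 13 and WT 3 was the lowest for 20. With WT 1 and KO 6 left out, 26 of the 29 called keratins still passed in the same direction, the exceptions being Krt13, Krt34 and Krt77, and Krt17, Krt19 and the previously untested Krt82 passed. With that pair as a block all 29 calls stood, and Krt17 (adjusted p = 0.0328), Krt19 (adjusted p = 0.0097) and Krt72 (adjusted p = 0.0265) passed as well. Of the 29, 22 kept their call in each fit leaving out 1 array that they entered.

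**Figure D4:**
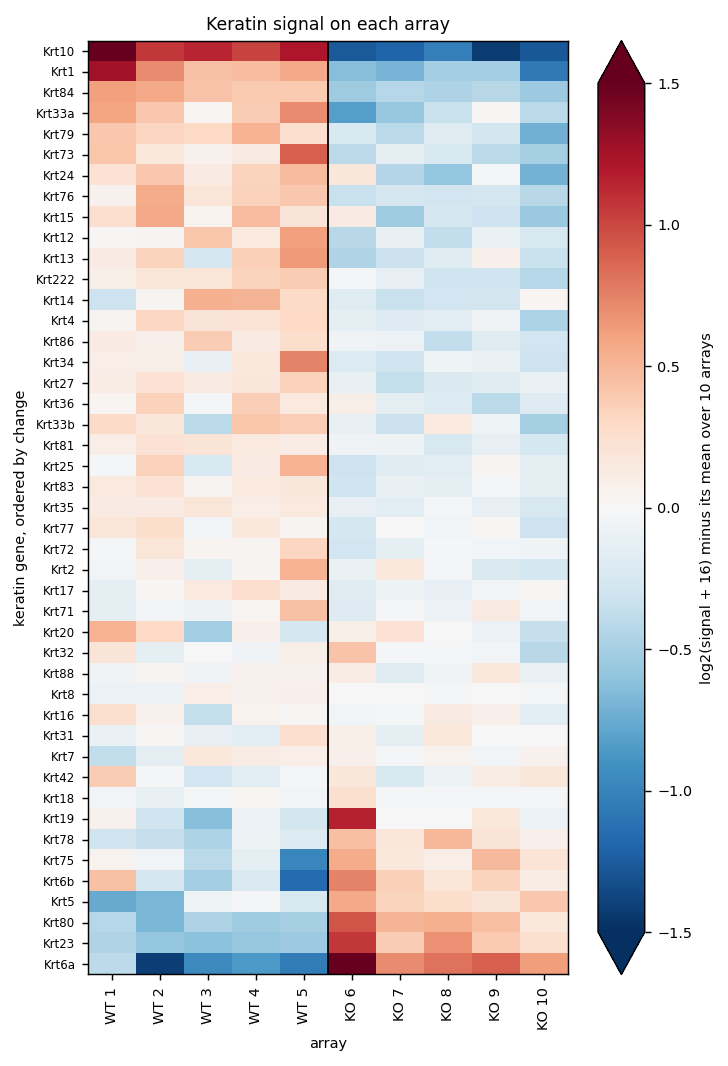
Deviation of each keratin's log2(signal + 16) from its mean over the 10 arrays (colour, limited to 1.5 either way), with WT arrays left of the line and KO arrays right of it and genes ordered by change. Krt10 and Krt1 at the top are high on every WT array, Krt6a at the bottom on every KO array, and KO 6 is the strongest KO array for Krt6a and Krt19.

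Genes that work with keratins were read from lists, whose counts stand beside 16.2% lower and 13.0% higher over all genes tested. Of 13 anchors and binding partners of keratin filaments, 6 were higher and 2 lower. Ppl and Evpl, periplakin and envoplakin, which tie keratin to the cornified envelope, were 289 ± 28.1 in WT and 748 ± 76.7 in KO (log2 change 1.32) and 110 ± 12.6 and 276 ± 42.8 (1.20). Dsp, desmoplakin, and Jup, plakoglobin, had changes of 0.21 and 0.50, and the plakophilins Pkp1 and Pkp3 of -0.22 and -0.37, all past the threshold. Plec, plectin, had -0.03 (95% interval -0.23 to 0.16).

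Of 14 other intermediate filament genes tested, 3 were lower, the neuronal Prph, Nefm and Nefh with changes of -0.85, -0.77 and -0.62, and 0 were higher (limma, 4 of the 14 at an unadjusted p under 0.05 in either direction), close to the share over all genes. Of 17 regulators of transcription with a part in epithelial keratin expression, 6 were higher and 3 lower. Grhl1, a grainyhead factor of epidermal differentiation, was 546 ± 36.5 in WT and 1221 ± 129 in KO (log2 change 1.13). Zfp750, Klf5, Klf4, Ovol1 and Grhl2 had changes of 0.59, 0.53, 0.49, 0.39 and 0.38, and Cebpb, Notch1 and Hnf4a of -0.58, -0.34 and -0.78. Trp63, the master factor of stratified epithelia, had -0.30 (95% interval -0.55 to -0.05), which did not pass after adjustment.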

How the data were processed

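Signal was measured on 10 Affymetrix arrays. The deposited values are linear intensity per probe set (45101), made by the authors with MAS5, per the submitters' processing notes, without a version. Scaling, background step and detection calls are not stated in the labels, and for arrays their number limits the precision. Of the probe sets, 34958 had 1 gene symbol in GEO's platform annotation, 932 several and 9211 none, and 34754 matched RefSeq (GRCm38.p6) by Entrez identifier.

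Probe sets above the 40th percentile of the array on at least 5 arrays were kept, 1 per gene (highest mean). Signals were fitted as log2(signal + 16) with limma 3.58.1 in R 4.3.3 (lmFit, eBayes with trend and robust estimation), with Benjamini-Hochberg adjustment over 14087 genes. The procedure was tested on simulated data with independent noise for each gene. Those data held no effects shared by many genes on an array, so the test does not bear on such effects. The highest correlation between arrays was 0.997, so none is a copy of another. All 48 keratins are accounted for, those past the threshold by name, and other genes were named only from the lists. Members, classes and lists were chosen with earlier results of these data known. Alternatives were other offsets, normalizations, filters, probe set choices, limma settings and a stricter threshold, the Xist level or WT 1 with KO 6 as a block, that pair left out, and each array left out.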

Additional observations from a re-analysis of the deposited data

Results flagged for a closer look

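Within a genotype, an array whose distance to its nearest neighbour, on the log2 scale, took up more than 0.71 of the range of the group's 5 arrays was set apart. This held in 6 of 96 groups of keratin signals, and chance alone gives about 1 in 20. KO 6 was the highest KO array in 4 of them. Its Krt18 signal was 11087 against 9232 to 9300 (ratio 0.960), its Krt19 signal 2151 against 900 to 1069 (0.803), its Krt6a signal 1310 against 644 to 784 (0.724), and its Krt28 signal, near the floor, 23.6 against 15.3 to 17.1 (0.751). WT 1 had the highest Krt10 signal of the WT arrays, 3696 against 2211 to 2552 (0.721), and WT 5 the highest Krt71 signal, 193 against 124 to 141 (0.719).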

How the results depend on the processing

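The count of lower keratins, 22, was 16 to 22 when 1 array was left out and 17 to 24 under the other settings, and that of higher keratins, 7, was 5 to 7 and 5 to 8. The count of all genes called, 4119, was 3413 to 4171 when 1 array was left out, 2473 at an adjusted p under 0.01, 5098 with WT 1 and KO 6 as a block and 5563 with array weights. Fezf2 kept its direction and call in every fit it entered (-8.43 to -6.13). No called keratin changed sign. Single keratin values under alternatives other than the stricter threshold numbered 1017. Of these, 919 kept direction and call, 63 lost the call, 11 gained it and 24 changed sign. All sign changes were for keratins that did not pass. At the stricter threshold, an adjusted p under 0.01, 22 of the 29 called keratins still passed. Krt16 was 0.011 with median centring, 0.0285 with array weights and 0.062 without WT 1 and KO 6. Krt20 was 0.077 with array weights and 0.051 without that pair, and Krt7 -0.0604 and -0.049. Krt42 was -0.058 with the mean of probe sets and -0.17 without probe sets of shared sequence. With 1 array left out, Krt16 ranged from -0.094 to 0.053, Krt20 from -0.18 to 0.079, Krt32 from -0.15 to 0.064, Krt42 from -0.011 to 0.15, Krt7 from -0.036 to 0.096, Krt71 from -0.13 to 0.017 and Krt88 from -0.070 to 0.015. The cause was not tested. Krt35 and Fezf2 could not be fitted in the 5 fits without a WT array, where they failed the filter. No paired analysis was possible because the labels give the groups no shared replicate numbers. Signal near the array floor limits what can be said of the weakest hair and nail keratins. Among those tested, Krt35 and Krt31 had WT means of 24.1 and 23.6.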
